A study of Mus musculus with 20 samples.

Results

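The 10 genes followed here belong to TGF-β and activin signalling: Tgfb1, Tgfb3, Tgfbr1, Tgfbr2, Smad2, Smad3, Smad4, Ski, Skil and Inhba. Their RNA was measured in RNA-seq libraries of mouse TH17 cells, CD4 T cells that make interleukin-17. The set was chosen by gene name, and all 10 were found among the 24862 genes of the count tables. All 10 passed the low-count filter in each of the 3 comparisons. The 12 libraries form 6 groups with 2 replicates each, all of strain C57BL/6. Neither the mice's ages nor the separate origin of replicates (animals or cultures) is stated in the labels, so p-values reflect only how these samples vary, which may be technical.

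TH17 cells infiltrating the central nervous system (CNS) and TH17 cells of the ileum were sorted as GFP-positive cells. The reporter and the origin of the CNS infiltrate are not stated in the labels. TH17(β) cells with c-Rel overexpression (Ad-c-Rel) and with its control (Ad-control) were cultured with 2 ng/ml TGF-β1 and 20 ng/ml IL-6. Pathogenic TH17(23) cells from miR-21-/- mice and from control mice received 20 ng/ml each of IL-1β, IL-6 and IL-23, with 0 ng/ml of added TGF-β1. All cultures started from naive CD4 T cells of lymph nodes or spleen, stimulated through CD3 and CD28 with antibodies against IL-4 and IFN-γ. The sorted cells were prepared with the SMART-Seq v4 low-input kit and the TH17(23) cultures with a TruSeq stranded kit for total RNA. For the other cultures the labels name no kit clearly. Added TGF-β1 is a protein and is not counted as Tgfb1 RNA. The comparisons ask how the sorted cells of the 2 tissues differ, which genes respond to overexpressed c-Rel in TH17(β) cells, and which differ in TH17(23) cells that lack miR-21.

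TGF-β ligands are secreted in a latent form and, once activated, bind a type II receptor, which switches on a type I receptor. The type I receptor phosphorylates SMAD2 and SMAD3, which join SMAD4 and act on genes in the nucleus. The related proteins SKI and SnoN (gene Skil) hold this transcription back, and Skil is itself a known TGF-β target. Activin A, a dimer of the protein made from Inhba, signals through its own receptors into the same SMADs. In CD4 T cells TGF-β with IL-6 drives the TH17 fate, and TGF-β3 is a known product of TH17 cells. The gene bodies of Tgfbr1 (chr4:47353222-47414926), Skil (chr3:31095058-31122923) and Inhba (chr13:16004256-16031609), on which most results turn, are given on GRCm38, and those of Tgfbr1, Tgfbr2, Smad3 and Inhba overlap a noncoding or pseudogene entry that is not a row of the tables.

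2 sequences belong to the comparisons and are shown for that reason. The first is the mature microRNA that the knockout removes, with its seed (bases 2 to 8) in capitals. The second is the 250 bases before the Inhba start used in RefSeq's promoter window, which lies inside the gene body given above and not at its first base. Inhba is the gene of the set with the largest difference under c-Rel. Windows were matched for 6 of the 10 genes. Both sequences were taken from RefSeq on build GRCm38.p6, the microRNA from chr11:86584120-86584141 on the minus strand and the window from chr13:16011601-16011850 on the plus strand.
miR-21a-5p: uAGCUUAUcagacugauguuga
Inhba upstream window: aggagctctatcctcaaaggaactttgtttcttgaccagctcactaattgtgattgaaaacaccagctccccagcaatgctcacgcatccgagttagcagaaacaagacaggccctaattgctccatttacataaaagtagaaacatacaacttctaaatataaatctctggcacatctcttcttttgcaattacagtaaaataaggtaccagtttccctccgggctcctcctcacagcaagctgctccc

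The Inhba window is printed without capitals because it held no match to the motifs searched on both strands. These were GGG or GGA, then any 3 bases, then TTCC for NF-κB, TGANTCA for AP-1, TGACGTCA for the CRE, and GTCTAGAC and CAGAC for SMADs. Of 32851 windows of this length, 4.65% and 3.25% held these NF-κB motifs, 6.75% the AP-1 motif, 1.55% the CRE, and 0.167% and 42.2% the SMAD motifs. G and C made up 43.2% of the Inhba window, against 58.4% to 87.6% in the windows of Tgfb1, Tgfbr1, Tgfbr2, Smad3 and Ski. CAGAC was found upstream of Tgfbr2 and of 1 of the 2 Tgfbr1 starts.

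Gene counts summed to between 15421743 and 19930807 per library in the sorted, Ad-c-Rel and Ad-control groups and to between 32766097 and 36711252 in the 4 TH17(23) libraries. The targeted genes went with their labels. Levels are given as CPM, counts scaled to a gene total of 1000000 per library. Rel was at 57.5 and 61.9 CPM with Ad-c-Rel, against 10.8 and 7.02 CPM with Ad-control, and Mir21a had 0 counts in both miR-21-/- libraries, against 25 and 20 in Control. Sorted replicates were less alike than cultured ones (Pearson r of log2(CPM + 1) across genes 0.927 in CNS and 0.919 in ileum, against 0.989 to 0.996), and replicate 2 of both tissues detected fewer genes (11545 in CNS and 10771 in ileum) than replicate 1 (14224 in CNS and 13927 in ileum). None of the 13 T cell identity genes was at 0 in any group. The sorted samples also held counts for markers of other cell types. In CNS, 19 myeloid and microglia markers summed to 28750 and 29690 CPM, against 2959 and 3189 CPM in ileum, and none of them was at 0 in either tissue. B and plasma cell markers summed to 367 and 363 CPM in CNS, with Ms4a1 and Pax5 at 0, against 4492 and 4340 CPM in ileum. In such bulk samples fewer cells of a type and less RNA per cell cannot be told apart.

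**Figure D1:**
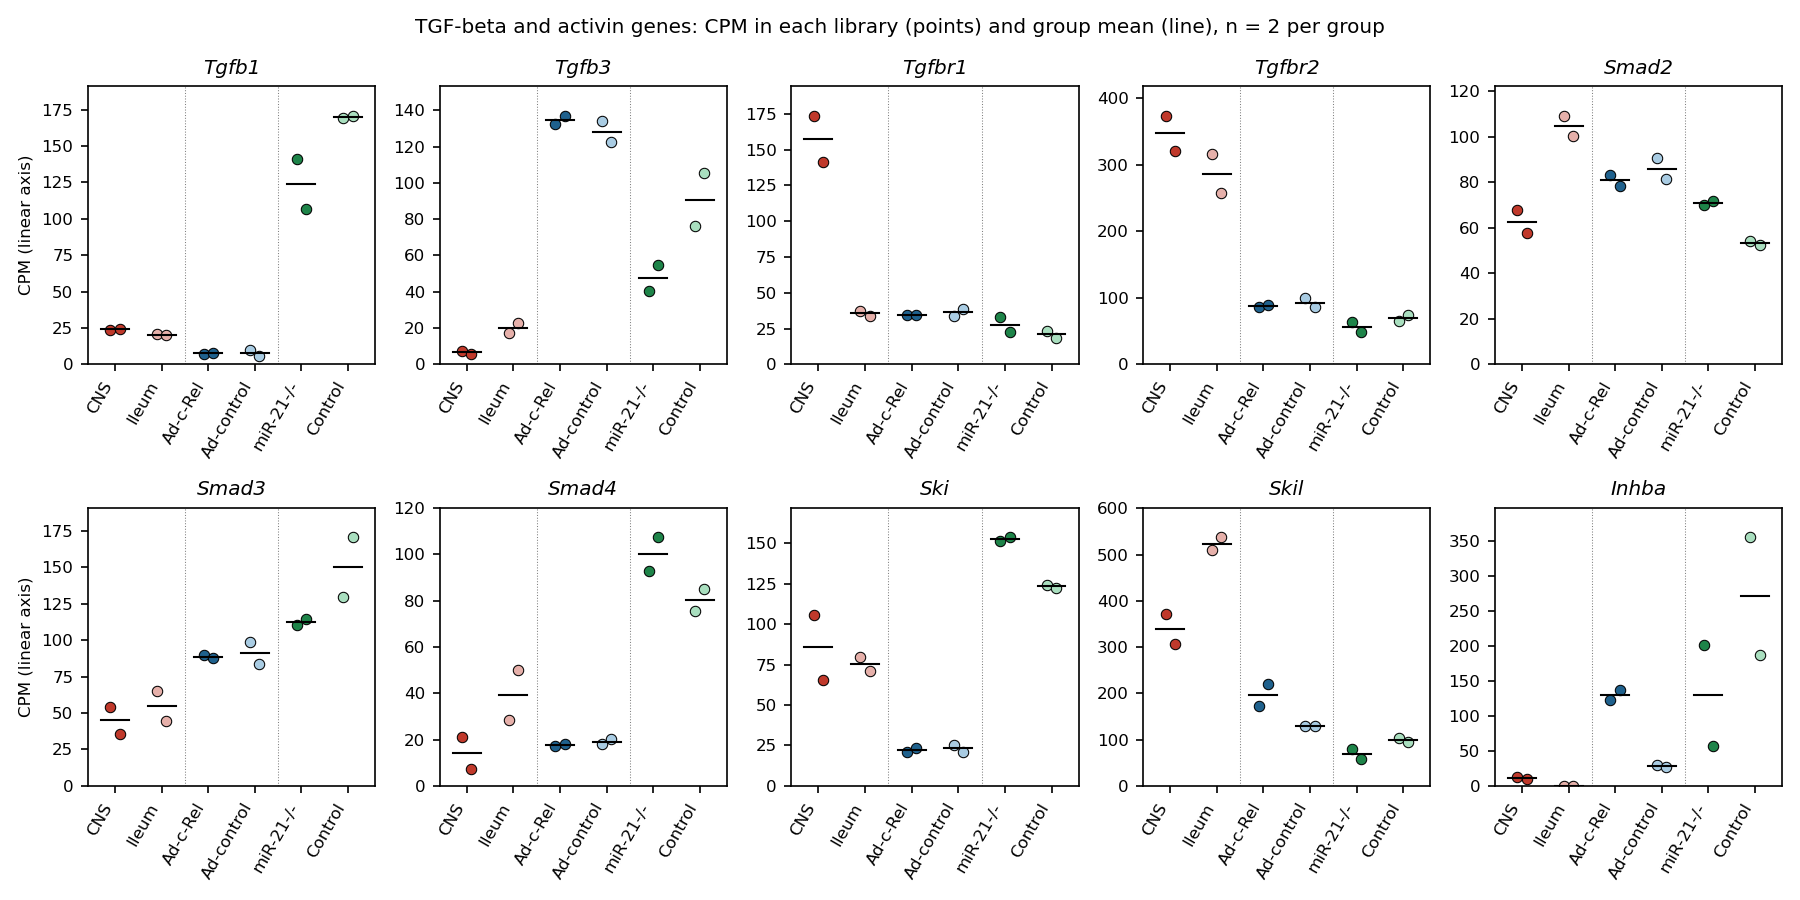
CPM of each of the 10 genes (vertical axes, linear, a scale of its own per gene) in the 6 groups, with a point per library and a line at the group mean, n = 2. Tgfbr1 stands at 174 and 141 CPM in CNS and at 38.8 CPM or below in every other library, and Inhba spans 0 to 355 CPM.

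The levels of the ligand genes differed most across the 6 groups. Tgfb1, the main TGF-β ligand of immune cells, was at 141 and 107 CPM in miR-21-/- and at 169 and 171 CPM in Control. It was at 23.7 and 24.6 CPM in CNS, 21.0 and 20.0 CPM in ileum, 7.28 and 7.97 CPM in Ad-c-Rel and 9.66 and 5.82 CPM in Ad-control. Its highest group mean was thus 22.3 times its lowest, and between neighbours in that order only the Ad-c-Rel and Ad-control ranges overlapped. Tgfb3 had another order, with overlap again only between Ad-c-Rel and Ad-control. It was at 132 and 137 CPM in Ad-c-Rel, 134 and 122 CPM in Ad-control, 40.2 and 54.8 CPM in miR-21-/- and 76.0 and 105 CPM in Control. In the sorted cells Tgfb3 was far lower, at 7.31 and 5.98 CPM in CNS and 17.5 and 22.7 CPM in ileum. Inhba spanned the widest range of the set. Inhba was at 202 and 57.1 CPM in miR-21-/-, 355 and 186 CPM in Control, 122 and 137 CPM in Ad-c-Rel and 29.8 and 27.4 CPM in Ad-control. Sorted CNS cells held 12.3 and 9.93 CPM of Inhba and ileum cells 0.431 and 0 CPM. Among neighbours only the Ad-c-Rel and miR-21-/- ranges overlapped for Inhba.

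The receptor genes were highest in the sorted CNS samples. Tgfbr1, the type I receptor, was at 174 and 141 CPM in CNS and 37.1 and 34.1 CPM in ileum. The 4 cultured groups ranged from 18.6 to 38.8 CPM. The ranges of ileum, Ad-c-Rel and Ad-control overlapped, as did those of miR-21-/- and Control. Tgfbr2, the type II receptor, was at 374 and 322 CPM in CNS and 317 and 257 CPM in ileum. The cultured libraries held 48.3 to 99.4 CPM of it, all below the sorted ones.

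Among the SMAD genes Smad2 varied least, with group means between 53.4 CPM in Control and 105 CPM in ileum, a ratio of 1.96. Smad3 was at 54.5 and 35.9 CPM in CNS and 65.4 and 44.3 CPM in ileum, and it ranged from 83.4 to 171 CPM in the cultures. Smad4 was at 92.6 and 107 CPM in miR-21-/- and 75.5 and 85.0 CPM in Control, against 17.4 to 20.0 CPM in the Ad-c-Rel and Ad-control libraries. The sorted replicates of Smad4 lay far apart, at 21.2 and 7.13 CPM in CNS and 28.5 and 50.2 CPM in ileum, and the CNS range overlapped those of Ad-c-Rel and Ad-control.

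The related corepressors ran in different orders. Ski was highest in the TH17(23) cultures, at 151 and 154 CPM in miR-21-/- and 124 and 122 CPM in Control. It was at 106 and 65.7 CPM in CNS, 79.6 and 70.8 CPM in ileum, and 20.8 to 25.2 CPM in the Ad-c-Rel and Ad-control libraries. Skil was lowest in those TH17(23) cultures, at 80.5 and 57.4 CPM in miR-21-/- and 103 and 95.2 CPM in Control. It was highest in the sorted cells, at 371 and 306 CPM in CNS and 510 and 537 CPM in ileum, with 173 and 220 CPM in Ad-c-Rel and 130 and 129 CPM in Ad-control between them.

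The control cultures of the 2 in vitro experiments can be set side by side only as a description, since experiment, added cytokines and library preparation change together and cannot be told apart. On the log2(CPM + 1) scale Tgfb1 was 4.29 higher in Control than in Ad-control, a 19.5-fold difference that 0.653% of 10262 genes matched or passed in either direction. Inhba (3.20), Ski (2.37) and Smad4 (2.01) were also at least 4-fold higher in Control. Over all those genes 12.3% differed at least 4-fold, 1030 higher and 232 lower in Control. The other 6 genes of the set lay between −0.76 and 0.72 on that scale.

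Over the 12 libraries, the genes whose log2(CPM + 1) ran most like that of Tgfb3 among 10143 others were Tut1 (Pearson r = 0.983), 4932438H23Rik (0.980), Pim2 (0.977) and Ncs1 (0.974). For Inhba they were Lclat1 (0.976), Atp6v1a (0.969), Nudt5 (0.966) and Uxs1 (0.960), and for Skil Myl12a (0.983), Ccr1 (0.982), Ppp1r11 (0.981) and Klf6 (0.980). These are descriptions, without a test, over 12 points that share experiment and library preparation in blocks of 4.

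Between the sorted tissues, the type I receptor gene rose and the corepressor Skil fell in CNS, while no other gene of the set passed the test. Tgfbr1 averaged 157 ± 22.9 CPM in CNS and 35.6 ± 2.12 CPM in ileum (SD, n = 2 each), a log2 fold change of 1.94 (SE 0.240, adjusted p = 0.00991 by edgeR's quasi-likelihood test). Fold changes here come from that fit, which rescales libraries for composition, and a call means a p under 0.05 after Benjamini-Hochberg adjustment over all genes tested. Both CNS libraries lay above both ileum libraries for Tgfbr1, and its call held in every alternative run, with log2 fold changes of 1.77 to 2.39. Its partner receptor gene Tgfbr2 was not called, with a log2 fold change of 0.074 (SE 0.182, adjusted p = 0.868). The set thus had 1 gene higher and 1 lower of 10 tested, where 4.0% of 12038 genes were higher in CNS and 5.66% lower, or 9.66% in all. At an unadjusted p under 0.05 there were 6 of 10, where 24.4% of all genes passed that level. The median log2 fold change of the set was −0.25, against 0.075 over all genes tested.

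Myeloid and microglia markers moved with Tgfbr1 in the same libraries: 19 of 19 were higher in CNS, with a median log2 fold change of 2.94. Microglia are known to express Tgfbr1 and to depend on TGF-β. The part of such cells in the Tgfbr1 result was not tested. T cell identity genes had a median of −0.50, with 4 of 13 lower and 0 higher.

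Skil averaged 339 ± 46.1 CPM in CNS and 524 ± 19.1 CPM in ileum (SD, n = 2 each), with a log2 fold change of −0.83 (SE 0.148, adjusted p = 0.0283 by edgeR). The 2 groups did not overlap for Skil. B and plasma cell markers moved with Skil: 10 of 10 tested lay lower in CNS, 6 of them called, with a median log2 fold change of −5.66. The part of such cells in the Skil result was not tested. The Skil call ended under a scaling that set the T cell identity genes equal (−0.38, adjusted p = 0.201), which shifted the median of all genes by 0.45. It also ended without CNS replicate 2, ileum replicate 1 or ileum replicate 2 (adjusted p 0.0522 to 0.0770).

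Several genes had large differences between the tissues that did not pass. Inhba had 207 and 191 counts in CNS, against 7 and 0 in ileum, a ratio of 52.5 with a 95% exact interval of 25.2 to 131 for counting error alone. Its log2 fold change was 5.43 (SE 2.05, adjusted p = 0.185), and it passed without ileum replicate 1, the library that held all 7 counts (adjusted p = 0.0202), with adjusted p of up to 0.420 without another library. Macrophages are also known to make activin A, and the part of myeloid cells in the Inhba counts was not tested. Tgfb3 had a log2 fold change of −1.79 (SE 0.646, adjusted p = 0.170), Smad4 of −1.68 (SE 0.665, adjusted p = 0.204) and Smad2 of −0.94 (SE 0.234, adjusted p = 0.0697). Smad4 moved to −2.69 without CNS replicate 1 and to −1.15 without CNS replicate 2, and it was called with no low-count filter (adjusted p = 0.0371) and in the fit over all 12 libraries (adjusted p = 0.0249). For each of these 3 genes both CNS libraries lay below both ileum libraries. Such separation alone says little here. The CPM of Tgfb1 and Tgfbr2 did not overlap between the tissues either, at log2 fold changes of 0.035 and 0.074. Smad3 was at −0.49, Tgfb1 at 0.035 and Ski at −0.015, with adjusted p of 0.519 to 0.985, and Ski turned to 0.44 under the T cell scaling. DESeq2 called Tgfb3, Smad2 and Inhba besides Tgfbr1 and Skil.

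**Figure D2:**
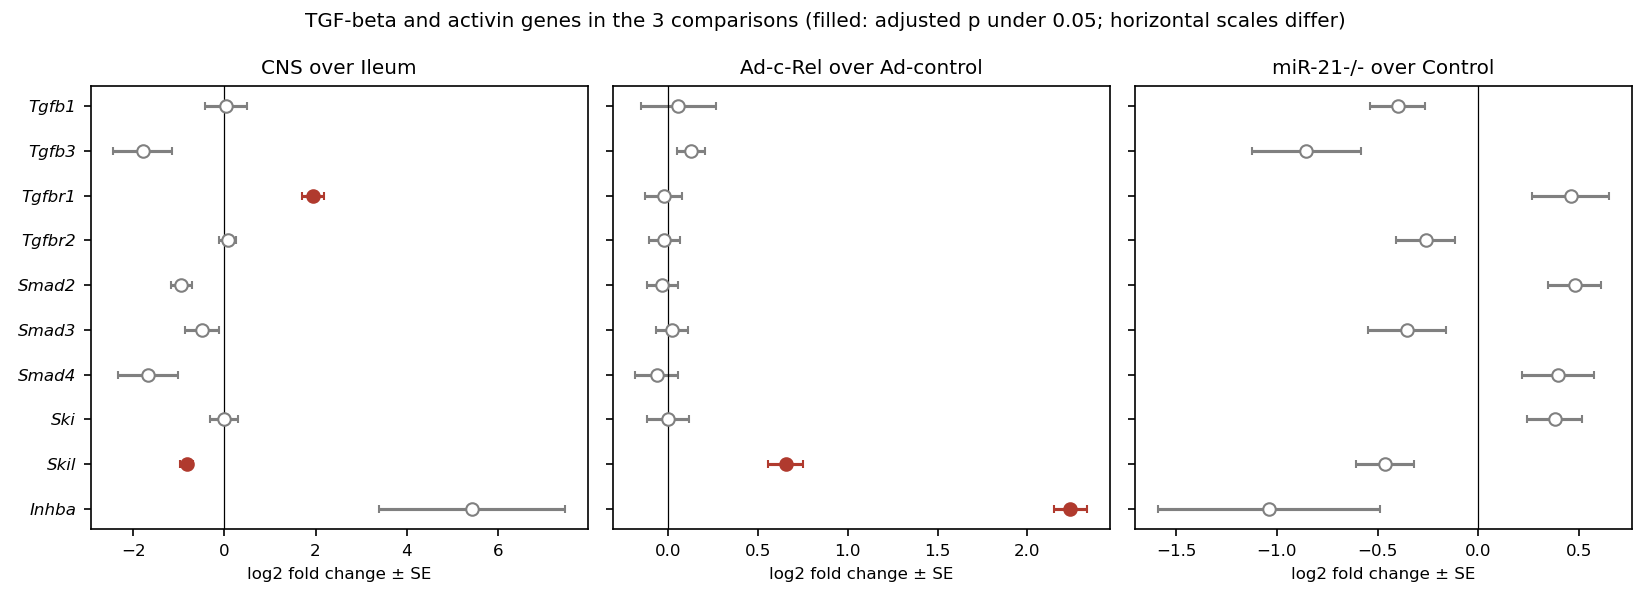
Log2 fold change (horizontal axes, scales differ) with SE for each of the 10 genes in the 3 comparisons, with filled points at an adjusted p under 0.05. Tgfbr1 (1.94) and Skil (−0.83) were called between CNS and ileum, Inhba (2.24) and Skil (0.66) with Ad-c-Rel, and none of the 10 in miR-21-/-. All fits shown are without a replicate block.

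Around the set, 6 lists held 89 further genes of the pathway, of which 65 were tested between the tissues, 4 higher and 7 lower in CNS, where 9.66% of all genes were called. Under the T cell scaling 5 were higher and 3 lower. In the list on latent TGF-β storage and activation, Nrros, which anchors latent TGF-β1 on microglia and macrophages, was at 164 and 153 CPM in CNS, against 31.7 and 35.6 CPM in ileum (log2 fold change 2.04, adjusted p = 0.00676 by edgeR). Mmp14, a membrane protease, was higher too (1.90, SE 0.207). Furin, the protease that cleaves the TGF-β precursor, was at 659 and 564 CPM in CNS, against 2274 and 2288 CPM in ileum (−2.10, SE 0.120). These were the 2 higher genes and the 1 lower gene of 9 tested in that list. The myeloid markers above moved with Nrros and Mmp14 as well, and their part was not tested. The B and plasma cell markers moved with Furin, and their part was not tested either.

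Among 10 other receptors and co-receptors tested, Nrp1, a co-receptor for several ligands, was at 297 and 258 CPM in CNS, against 6.46 and 13.8 CPM in ileum (4.58, SE 0.413). Acvr2a, a type II receptor for activin, fell (−1.87, SE 0.370, adjusted p = 0.0382 by edgeR). Tgif1, a corepressor that binds SMADs, was the 1 called of 14 tested cofactor genes, of which 10 lay below 0 (−1.39, SE 0.249). Strap, which binds the receptors, was the 1 called of 17 tested inhibitor genes, of which 12 lay below 0 (−0.86, SE 0.159). None of 4 other ligands tested was called. Gdf15 was at 4.28 and 0 CPM in CNS, against 9.17 and 18.3 CPM in ileum, and Lefty1 at 4.46 and 3.69 CPM in CNS, against 0.738 and 0 CPM in ileum.

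The known TGF-β response genes moved both ways, 1 higher and 3 lower of 11 tested. Tgfbi, a matrix protein named for its induction by TGF-β, was at 650 and 513 CPM in CNS, against 72.7 and 86.2 CPM in ileum (2.67, SE 0.188). The myeloid markers moved with Tgfbi and Nrp1 too, and their part was not tested. The cell cycle inhibitor Cdkn1a (−1.50, SE 0.130), the AP-1 subunit Junb (−0.86, SE 0.0990) and Id2 (−0.65, SE 0.116) fell. The B and plasma cell markers moved with these 3 genes and with Acvr2a, Tgif1 and Strap, and their part was not tested. The calls of Acvr2a, Tgif1, Strap and Id2 ended under the T cell scaling (adjusted p 0.0740 to 0.351). The Strap call ended without any 1 of the 4 libraries (adjusted p 0.0608 to 0.114). Those of Acvr2a and Id2 ended without CNS replicate 1 or ileum replicate 2 (adjusted p 0.0624 to 0.104), and that of Tgif1 without ileum replicate 2 (adjusted p = 0.0570).

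**Figure D3:**
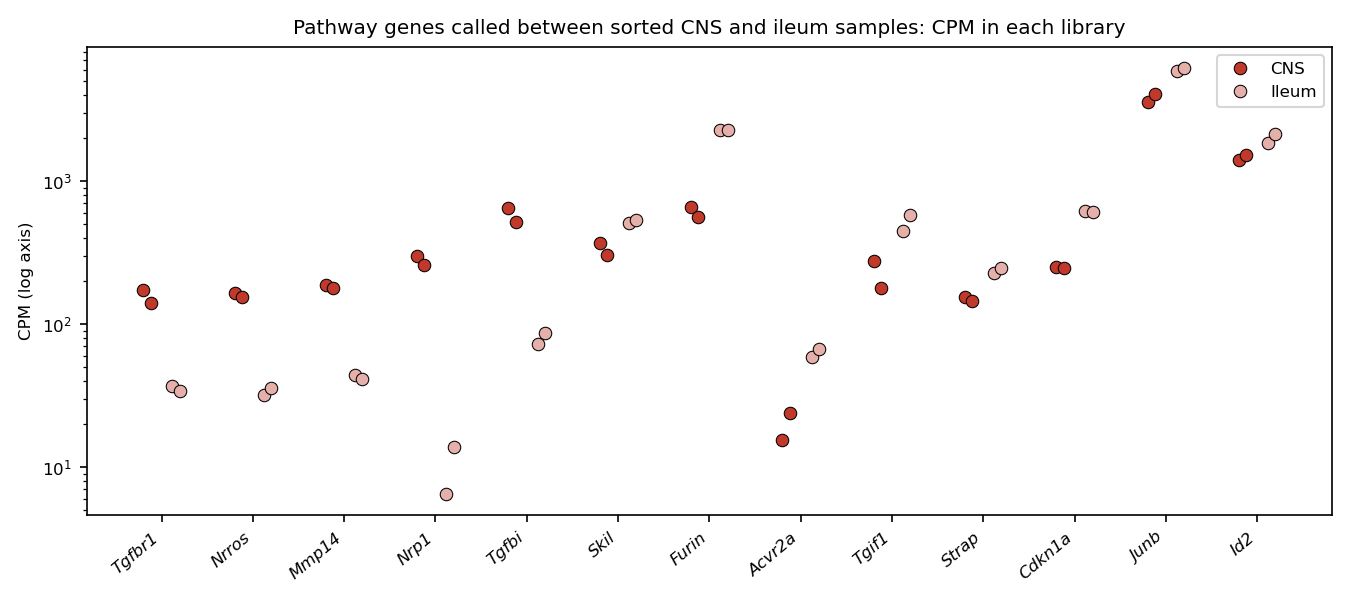
CPM (log axis) of the 13 called genes of the set and the pathway lists in each CNS and ileum library. Tgfbr1, Nrros, Mmp14, Nrp1 and Tgfbi lie higher in both CNS libraries, and the other 8 genes lie lower.

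With added c-Rel, Inhba and Skil rose in TH17(β) cells and the other 8 genes of the set had log2 fold changes of at most 0.13 in size, none called. Inhba averaged 130 ± 10.2 CPM in Ad-c-Rel and 28.6 ± 1.69 CPM in Ad-control (SD, n = 2 each), 4.72-fold higher (adjusted p = 1.40e-09 by edgeR, log2 fold change 2.24, SE 0.0937). Skil averaged 196 ± 33.1 CPM in Ad-c-Rel and 130 ± 0.795 CPM in Ad-control (SD, n = 2 each), 1.58-fold higher (0.66, SE 0.0988, adjusted p = 0.000293). For both genes each Ad-c-Rel library lay above each Ad-control library. That is 2 of 10 higher and 0 lower, where 8.16% of 11711 genes tested were higher, 6.12% lower and 14.3% called in all. The same 2 genes alone had an unadjusted p under 0.05, where 28.6% of all genes did. Both calls held without any 1 of the 4 libraries (adjusted p up to 0.0137 for Skil) and ended in a fit over all 12 libraries (adjusted p = 0.483 for Inhba and 0.434 for Skil).

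The ligand gene Tgfb3 had the largest difference among the rest, at 0.13 (SE 0.0776, adjusted p = 0.289). Tgfb1, at 5.82 to 9.66 CPM in these cultures, had a less certain value of 0.059 (SE 0.207, adjusted p = 0.887). Tgfbr1, Tgfbr2, Smad2, Smad3, Smad4 and Ski had log2 fold changes from −0.061 to 0.024, with SE of 0.0840 to 0.119. The median of the set was 0.012, against −0.0063 over all genes.

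Mast cell and basophil genes moved with Inhba in the same libraries. They summed to 64.3 and 60.1 CPM in Ad-c-Rel, against 17.3 and 15.0 CPM in Ad-control, with Mcpt4 at 0 in both groups, and 5 of 6 tested were higher. Most of both sums was Kit, at 38.0 and 40.6 CPM in Ad-c-Rel and 14.4 and 13.45 CPM in Ad-control. The other called genes had larger log2 fold changes from at most 1.23 CPM in Ad-control. They were Mcpt8 (4.56, SE 0.298), Prss34 (6.87, SE 0.582), Cma1 (3.52, SE 0.488) and Cpa3 (2.04, SE 0.418). Mcpt8 was at 10.4 and 9.13 CPM in Ad-c-Rel, against 0.259 and 0.552 CPM in Ad-control. Fcer1a was tested and not called, at 0.797 and 0.548 CPM in Ad-c-Rel, against 0.778 and 0.452 CPM in Ad-control. Ms4a2 had 3 and 1 counts in Ad-c-Rel, against 4 and 1 in Ad-control. Mast cells are also known to make activin A. The part of these genes' source in the Inhba result was not tested. Neutrophil markers summed to at most 5.17 CPM in any of the 4 libraries. Of the 19 myeloid markers, C1qa, C1qb, C1qc, Siglech and Trem2 were at 0 in both groups, Lyz2 only in Ad-c-Rel and Adgre1 only in Ad-control. Of 7 myeloid markers tested, 3 were higher with Ad-c-Rel and 1 lower. The higher ones, named after their values were seen, were Tmem119 (14.5 and 12.7 CPM in Ad-c-Rel, against 5.32 and 4.92 CPM in Ad-control), Cd68 (36.4 and 37.1 CPM in Ad-c-Rel, against 22.8 and 27.8 CPM in Ad-control) and Fcer1g (18 and 13 counts in Ad-c-Rel, against 2 and 0 in Ad-control). The 19 summed to 255 and 248 CPM in Ad-c-Rel, against 270 and 277 CPM in Ad-control.

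Of 67 tested pathway list genes, 16 were called higher and 1 lower with Ad-c-Rel, where 8.16% of all genes were called higher and 6.12% lower. All 17 calls ended in the fit over all 12 libraries, which called 19 genes in all. The count fell to 9 without Ad-c-Rel replicate 2 (8 higher) and to 10 without Ad-control replicate 1 (9 higher). Genes that store and activate latent TGF-β made up 4 of the higher ones, of 9 tested in their list, with a list median of 0.60. Furin was at 520 and 460 CPM in Ad-c-Rel, against 264 and 183 CPM in Ad-control (1.19, SE 0.119, adjusted p = 4.98e-06 by edgeR). Itgav, the integrin αv chain, was at 90.5 and 107 CPM in Ad-c-Rel, against 60.2 and 53.6 CPM in Ad-control (0.86, SE 0.0968). Lrrc32, which encodes GARP, the tether of latent TGF-β on T cells, rose less (0.40, SE 0.0821). Itgb8, whose protein pairs with αv to activate TGF-β, was near the detection limit, at 1.25 and 1.70 CPM in Ad-c-Rel, against 0.389 and 0.502 CPM in Ad-control (1.75, SE 0.460), and its call ended in DESeq2 and without Ad-c-Rel replicate 2 or either Ad-control library.

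The TGF-β response list had 6 genes higher and 1 lower of 11 tested, with a median of 0.55. Id3, an inhibitor of helix-loop-helix factors, was at 14.1 and 12.7 CPM in Ad-c-Rel, against 7.00 and 6.52 CPM in Ad-control (1.05, SE 0.151, adjusted p = 0.000193 by edgeR). Cdkn1a (0.47, SE 0.0721) and Id2 (0.44, SE 0.0721) were also higher. Cdkn2b, at 23 and 13 counts in Ad-c-Rel, against 2 and 3 in Ad-control, and Junb (0.26, SE 0.0749) were higher too, and both calls ended without at least 1 library (adjusted p 0.0689 to 0.178). The lower gene was Gpr15, a homing receptor known to be induced by TGF-β, which was singled out after its values were seen (−0.49, SE 0.0883, adjusted p = 0.00144). These genes also answer other signals, and the list is no measure of SMAD activity.

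In the remaining lists 6 genes were called higher and 0 lower with Ad-c-Rel. Nrp1 (0.80, SE 0.191) and Acvrl1, a type I receptor (0.31, SE 0.0747), rose among 12 other receptors tested, and Tgif1 (0.41, SE 0.0938) among 15 cofactors. Wwp1, a ubiquitin ligase (0.28), Strap (0.25) and Fkbp1a, which binds type I receptors (0.25), rose among 16 inhibitors. Each of these 6 calls ended without at least 1 library, at adjusted p of 0.0519 to 0.455. None of 4 other ligands was called. Lefty1 was at 2.28 and 2.25 CPM in Ad-c-Rel, against 3.37 and 2.96 CPM in Ad-control, and Bmp7 at 1.37 and 1.70 CPM in Ad-c-Rel, against 1.82 and 1.86 CPM in Ad-control.

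**Figure D4:**
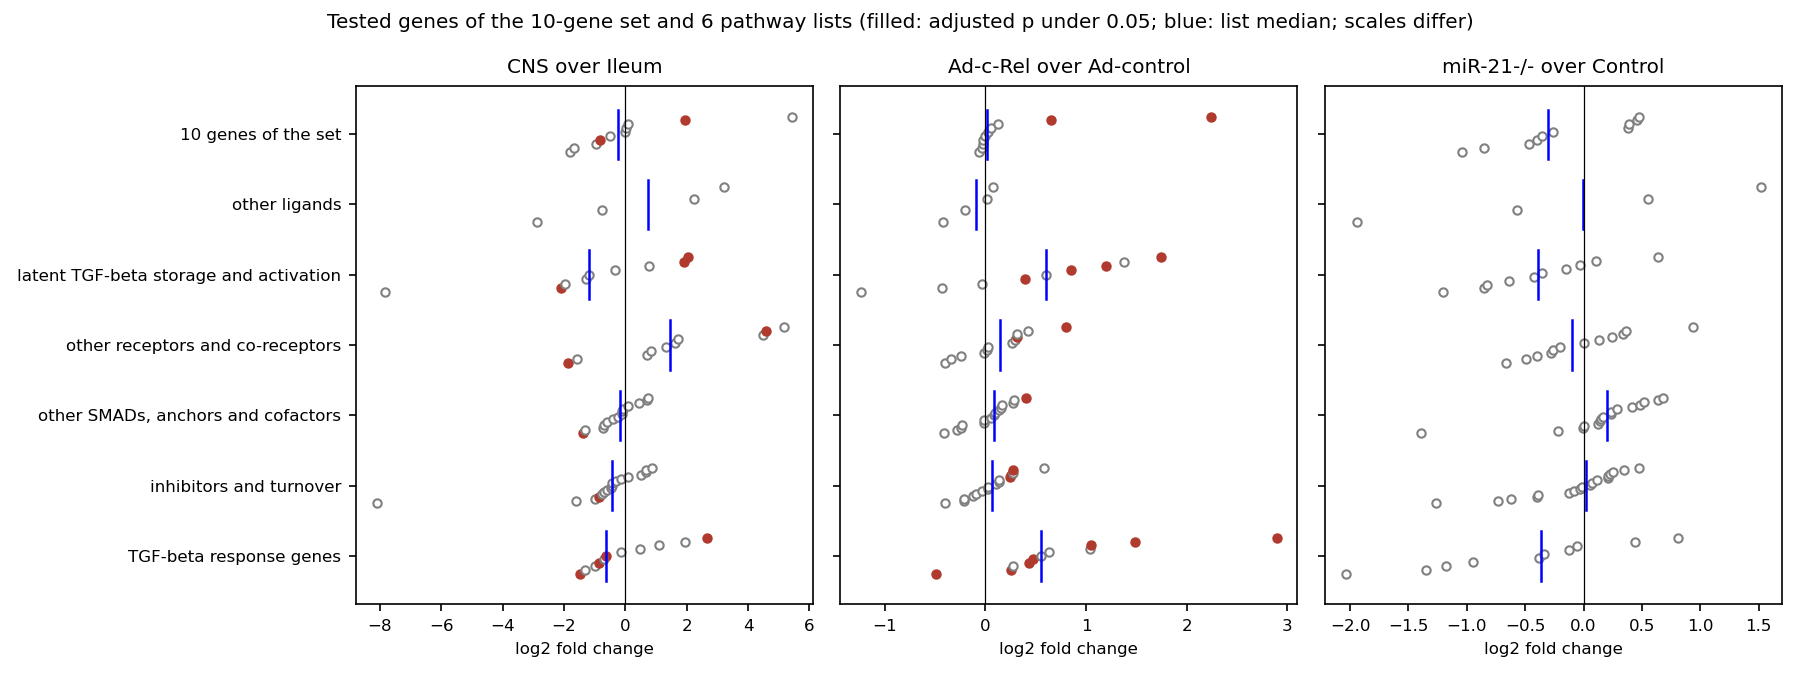
Log2 fold change (horizontal axes, scales differ) of each tested gene in the 10-gene set and the 6 pathway lists, with filled points at an adjusted p under 0.05 and blue lines at list medians. With Ad-c-Rel, 4 of 9 genes of latent TGF-β storage and activation and 6 of 11 response genes were called higher, and no point is filled in miR-21-/-. All fits shown are without a replicate block.

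In miR-21-/- TH17(23) cells no gene of the set passed the main test, which treats the libraries as unpaired. Same-numbered libraries deviated together in this comparison (correlation 0.659). With replicate number as a block 9 of the 10 were called, where 4807 of 13428 genes were called in all. The labels do not say that replicate numbers pair samples, so they do not settle which fit applies. EdgeR's quasi-likelihood test called 0 of the 10, as it called 0 of 13428 genes (0%), and DESeq2 called 0 of the 10 and 803 genes in all. At an unadjusted p under 0.05 there were 5 of 10, where 21.0% of all genes tested passed that level. The median log2 fold change of the set was −0.31, against −0.019 over all genes, with 4 genes above 0 and 6 below.

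All 3 ligand genes had lower means in the knockout. Tgfb3 was at 40.2 and 54.8 CPM in miR-21-/-, against 76.0 and 105 CPM in Control (adjusted p = 0.176 by edgeR, log2 fold change −0.85, SE 0.270). Tgfb1 was at 141 and 107 CPM in miR-21-/-, against 169 and 171 CPM in Control (−0.40, SE 0.137, adjusted p = 0.192). The knockout libraries lay below the control ones for both genes, a separation whose share over all genes was not counted. For Inhba the groups overlapped, at 202 and 57.1 CPM in miR-21-/- and 355 and 186 CPM in Control (−1.04, SE 0.552, adjusted p = 0.328). Replicate 1 was the higher library of both groups for Inhba, and the value rested on single libraries. It was −2.07 without miR-21-/- replicate 1 (adjusted p = 0.0225), −0.42 without miR-21-/- replicate 2 (adjusted p = 0.637), −0.54 without Control replicate 1 (adjusted p = 0.755) and −1.39 without Control replicate 2 (adjusted p = 0.304).

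The downstream genes leaned in both directions. Smad2 was at 70.0 and 71.7 CPM in miR-21-/-, against 54.2 and 52.6 CPM in Control (0.48, SE 0.131, adjusted p = 0.158 by edgeR). Ski was at 151 and 154 CPM in miR-21-/-, against 124 and 122 CPM in Control (0.38, SE 0.136, adjusted p = 0.203). Skil was at 80.5 and 57.4 CPM in miR-21-/-, against 103 and 95.2 CPM in Control (−0.47, SE 0.144, adjusted p = 0.172). The libraries of the 2 groups did not overlap for these 3 genes, nor for Smad4, Smad3 and Tgfbr2. None passed after adjustment over all genes in the fit without a replicate block. With 2 libraries per group such separation is easily reached, and its share over all genes was not counted. Smad4 (0.39), Tgfbr1 (0.46), Smad3 (−0.35) and Tgfbr2 (−0.26), reported in human cells as a miR-21 target, had adjusted p of 0.250 to 0.344.

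Of 70 pathway list genes tested in the knockout comparison, edgeR without a replicate block called 0 and DESeq2 called 7, 2 higher and 5 lower. Inha, the inhibin α chain, which opposes activin when paired with the Inhba product, was at 4.63 and 3.75 CPM in miR-21-/-, against 16.1 and 17.6 CPM in Control (−1.94, SE 0.204, adjusted p = 0.0938 by edgeR). Id2 was at 103 and 88.4 CPM in miR-21-/-, against 172 and 212 CPM in Control (−0.95, adjusted p = 0.125), and Lrrc32 at 69.4 and 49.7 CPM in miR-21-/-, against 94.4 and 124 CPM in Control (−0.83, adjusted p = 0.138). In each of these 3 genes both knockout libraries lay below both control libraries, a separation whose share over all genes was not counted.

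The genes of smallest p in the other lists lay mostly above 0 in the knockout. They were the corepressor Ncor1 (0.68), the SMAD ubiquitin ligase Trim33 (0.64), Smad7, an inhibitory SMAD reported as a miR-21 target (0.48), the phosphatase Ppm1a (0.35), the BMP receptor Bmpr2 (0.34) and the ligand Bmp7 (1.52), beside Mmp9 (−1.20) and Nrp1 (−0.66). Their adjusted p ran from 0.158 to 0.234. Smad7 was at 45.0 and 46.8 CPM in miR-21-/-, against 33.8 and 35.6 CPM in Control. Without miR-21-/- replicate 1 the lists had 12 calls, 4 higher and 8 lower, in a fit that called 1327 of 13425 genes, and without any other library they had 0 to 2. Stroma and endothelium markers summed to 240 and 161 CPM in miR-21-/-, against 372 and 340 CPM in Control. Most of this was Lum (171 and 107 CPM in miR-21-/-, 262.5 and 230 CPM in Control) and Pecam1 (56.3 and 45.9 CPM in miR-21-/-, 93.9 and 93.8 CPM in Control). Col1a1, Col1a2, Col3a1 and Cdh5 were at 2.56 CPM or below in these libraries. Of 6 markers tested, 5 lay below 0 and 1 above, with 0 called. Whether such cells were present, and their part in these values, was not tested.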

How the data were processed

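RNA-seq was analysed in 12 libraries of mouse TH17 cells. ATAC-seq samples are not analysed here. The values are raw counts per gene as deposited by the authors. Build mm10, TopHat2 2.1.0, HTSeq 0.11.0, Trim Galore 0.4.4, CASAVA 1.4, Bowtie2, SAMtools, HOMER and DESeq2 appear, without roles, in the submitters' processing notes. Annotation and strand setting: not given in the sources used here. Counter lines that name no gene (14.7% to 26.1% of all counts) were left out. The line for reads not uniquely aligned was 0 in the miR-21 experiment and 2.25% to 3.52% elsewhere, and whether multi-mapped reads were handled alike before deposit is not given in the labels.

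CPM is a gene's count scaled to a gene total of 1000000, with no further scaling. Each comparison was fitted over its own 4 libraries with edgeR 4.0.16 (filterByExpr, TMM, quasi-likelihood F test, Benjamini-Hochberg threshold 0.05) in R 4.3.3 with limma 3.58.1. SE is the log2 fold change divided by the root of F. The same code was tested on simulated data. Alternatives were DESeq2 1.42.0, size-factor scaling, no low-count filter, a fit over all 12 libraries, scaling to T cell genes, a replicate block and leaving out each library.

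Named besides the 10 genes were up to 4 called genes per pathway list by smallest p, or the 2 of smallest p where none was called, and for Tgfb3, Inhba and Skil the 4 genes of highest Pearson r. The 10 genes and all lists were chosen with earlier results of these data known. Counting intervals are 95% exact binomial and cover counting error only. Without transcript lengths, levels were not compared between genes. Some genes of the lists are counted but not reported here by name.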

Additional observations from a re-analysis of the deposited data

How the results depend on the processing

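With 2 libraries per group, counts of calls moved with the processing more than the fold changes did. For the 10 genes, 135 of 160 values under another setting and 98 of 120 with 1 library left out kept both direction and side of the threshold, 4 and 17 reversed, 3 and 3 lost a call, and 18 and 2 gained one. A fit without 1 library assumes that the lone sample of its group varies like the other group. Where a cause is not given, it was not tested.

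Between CNS and ileum, the 1163 genes called became 2540 with DESeq2, 2413 with no low-count filter and 4000 in one fit over all 12 libraries, and 893 to 1922 with 1 library left out. The 2 called genes of the set became 5, 4 and 6 under those settings in that order, 1 under a scaling to T cell identity genes, and 1 to 2 with 1 library left out. That scaling gave 947 genes higher and 387 lower, against 482 and 681. The 11 pathway list genes became 17, 18 and 22 under the first 3 settings, and 8 to 13 with 1 library left out. Ski had 0.44 under the T cell scaling. With 1 library left out, log2 fold changes ran from −0.092 to 0.26 for Tgfbr2, −0.046 to 0.10 for Tgfb1 and −0.41 to 0.24 for Ski.

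With Ad-c-Rel, the 1673 genes called became 1067 with DESeq2, 19 in the fit over all 12 libraries, and 926 to 1369 with 1 library left out. That fit shares one estimate of spread across groups and called 0 of the 10 genes and 0 list genes, against 2 and 17. List genes numbered 9 to 17 with 1 library left out. Ski had −0.0012 with DESeq2 and −0.012 with no filter and in the fit over 12 libraries. With 1 library left out, log2 fold changes ran from −0.11 to 0.11 for Ski, −0.11 to 0.071 for Tgfbr2, −0.27 to 0.43 for Tgfb1, −0.091 to 0.030 for Smad2, −0.13 to 0.10 for Tgfbr1, −0.077 to 0.13 for Smad3 and −0.14 to 0.027 for Smad4.

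In miR-21-/-, the 0 genes called by edgeR became 803 with DESeq2, 40 with no filter, 1 in the fit over all 12 libraries, and 3 to 1327 with 1 library left out. Of the 10 genes 0 to 1 were called with 1 library left out. The 0 list genes became 7 with DESeq2, 1 with no filter, and 0 to 12 with 1 library left out.

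Replicate numbers are shared between groups, but the labels do not say that they pair samples. Same-numbered libraries deviated together with correlations of 0.0780 for the tissues, 0.107 for Ad-c-Rel and 0.659 for miR-21-/-. With the replicate block the tissues had 1309 of 12038 genes called and 2 of the 10, and Ad-c-Rel had 2802 of 11711 genes and 2 of the 10. The miR-21-/- comparison had 4807 of 13428 genes, 9 of the 10 (4 higher, 5 lower) and 29 list genes. Counts for the pathway lists were added after seeing the data.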
